A study of Homo sapiens with 16 samples.

Results

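The genes described here are 10 cytokine and NF-κB feedback genes that epithelial cells are known to transcribe: *IL1A*, *IL1B*, *IL1RN*, *IL6*, *LIF*, *CXCL1*, *CXCL2*, *CXCL3*, *CCL20* and *NFKBIA*. They were chosen by symbol, and all 10 were found among the 26475 entries of the count table. The table covers 16 RNA-seq libraries of MCF10A cells, a spontaneously immortalized and non-tumorigenic human breast epithelial line, with 4 libraries in each of 4 groups. Controls received DMSO and no collagen, and the collagen group received DMSO with collagen 1 (0.05 mg/mL, 24 h). The other groups received the same collagen together with an inhibitor that was present for 48 h in all. DDR1i is DDR1-IN-1 at 2 μM, a small molecule inhibitor of the collagen receptor kinase DDR1. RUNXi is AI-10-104 at 5 μM, which blocks the binding of RUNX proteins to their partner CBFβ. The design asks what collagen did to the cells and whether blocking DDR1 and blocking RUNX changed the same genes. All libraries come from one cell line, and no source says that replicates were separate cultures, so p-values measure the spread between these samples, which may be technical.

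IL-1α and IL-1β, the products of *IL1A* and *IL1B*, bind the same receptor, and IL-1Ra, the product of *IL1RN*, occupies that receptor without activating it. Receptor signalling frees NF-κB dimers from IκBα, the product of *NFKBIA*, and NF-κB then drives chemokine and cytokine genes together with *NFKBIA* itself, which closes a negative feedback loop. In epithelium the CXCL chemokines attract neutrophils through CXCR2, CCL20 attracts cells that carry CCR6, and IL-6 and LIF signal through the shared receptor chain gp130 to STAT3. Transcripts of these genes are short-lived, since their AU-rich elements are bound by decay factors such as the ZFP36 proteins.

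Several of the genes are neighbours. On GRCh37, *IL1A* lies on chromosome 2 from 113531502 to 113542070 on the minus strand, *IL1B* from 113587328 to 113594393 on the minus strand and *IL1RN* from 113856892 to 113891593 on the plus strand. *CXCL1* lies on chromosome 4 from 74735110 to 74737025 on the plus strand, *CXCL3* from 74902306 to 74904524 and *CXCL2* from 74962757 to 74964913, both on the minus strand. The others stand alone, with *CCL20* on chromosome 2 from 228670455, *IL6* on chromosome 7 from 22765503, *NFKBIA* on chromosome 14 from 35870285 and *LIF* on chromosome 22 from 30636442.

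The promoters show what the chemokine genes share. RefSeq promoters on GRCh38.p14 were found for 9 of the 10 genes, in 12 windows, and the 250 bases before each start site were searched on both strands. The κB motif, the binding sequence of NF-κB, was present in 6 genes, *IL6*, *CXCL1*, *CXCL2*, *CXCL3*, *CCL20* and *NFKBIA*, against 5.21% of all 35116 promoters searched. In every one of the 6 genes the first base of the match lay between positions -81 and -73 from the start site. The stretches around it are shown because they show how alike the CXCL promoters are at this site, read 5′ to 3′ on the strand of the gene with the κB match in capitals (in the CXCL genes, overlapping matches on both strands).
IL6, chr7:22727102-22727161, plus strand: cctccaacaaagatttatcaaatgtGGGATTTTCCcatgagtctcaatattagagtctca
CXCL1, chr4:73869289-73869349, plus strand: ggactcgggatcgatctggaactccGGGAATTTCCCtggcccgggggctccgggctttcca
CXCL2, chr4:74099238-74099298, minus strand: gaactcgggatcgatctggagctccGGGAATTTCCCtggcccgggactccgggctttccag
CXCL3, chr4:74038733-74038793, minus strand: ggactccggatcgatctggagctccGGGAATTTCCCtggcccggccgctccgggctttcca
CCL20, chr2:227813738-227813797, plus strand: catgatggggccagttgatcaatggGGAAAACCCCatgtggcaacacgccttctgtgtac
NFKBIA, chr14:35404796-35404855, minus strand: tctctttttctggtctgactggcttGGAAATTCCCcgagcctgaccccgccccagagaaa

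The κB match was the same run of bases in the promoters of *CXCL1*, *CXCL2* and *CXCL3*, and it differed in *IL6*, *CCL20* and *NFKBIA*. Over the whole 250 bases, aligned promoters were identical in 81.4% of columns for *CXCL1* and *CXCL3*, 73.4% for *CXCL2* and *CXCL3* and 70.1% for *CXCL1* and *CXCL2*. The AP-1 motif TGANTCA was found in 2 genes, *IL1A* and *IL1RN* (6.57% of all promoters). The RUNX motif TGTGGT was found in 1 gene, *IL1RN* (11% of all promoters), and the CRE motif TGACGTCA in 0 of the 9 genes (1.65% of all promoters). None of these 4 motifs was found in the window of *IL1B*. A match says only that these letters are in the window.

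Levels are given as CPM, counts scaled to the size of each library, after TMM correction for library composition. Set per kilobase of transcript, *NFKBIA* was the most abundant of the genes, at 130.2 ± 38.0 CPM per kb (SD, n = 16 libraries). *IL1A* (39.8 ± 17.6), *CXCL1* (36.0 ± 14.1) and *CXCL2* (33.5 ± 14.6) followed, and these neighbours in the order lay well within one another's spread. A lower tier held *CXCL3* (8.74 ± 4.28), *CCL20* (6.99 ± 2.85) and *IL1B* (5.13 ± 2.75 CPM per kb), again within their spread, and *CXCL3* and *CCL20* changed places when the longest transcript of each gene was used. *IL1RN* (1.54 ± 1.00), *LIF* (1.15 ± 0.572) and *IL6* (0.678 ± 0.575 CPM per kb) were lowest, and the SD ranges of *IL1B* and *IL1RN* still touched. On this scale the agonist *IL1A* was well above both *IL1B* and the antagonist *IL1RN*.

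**Figure D1:**
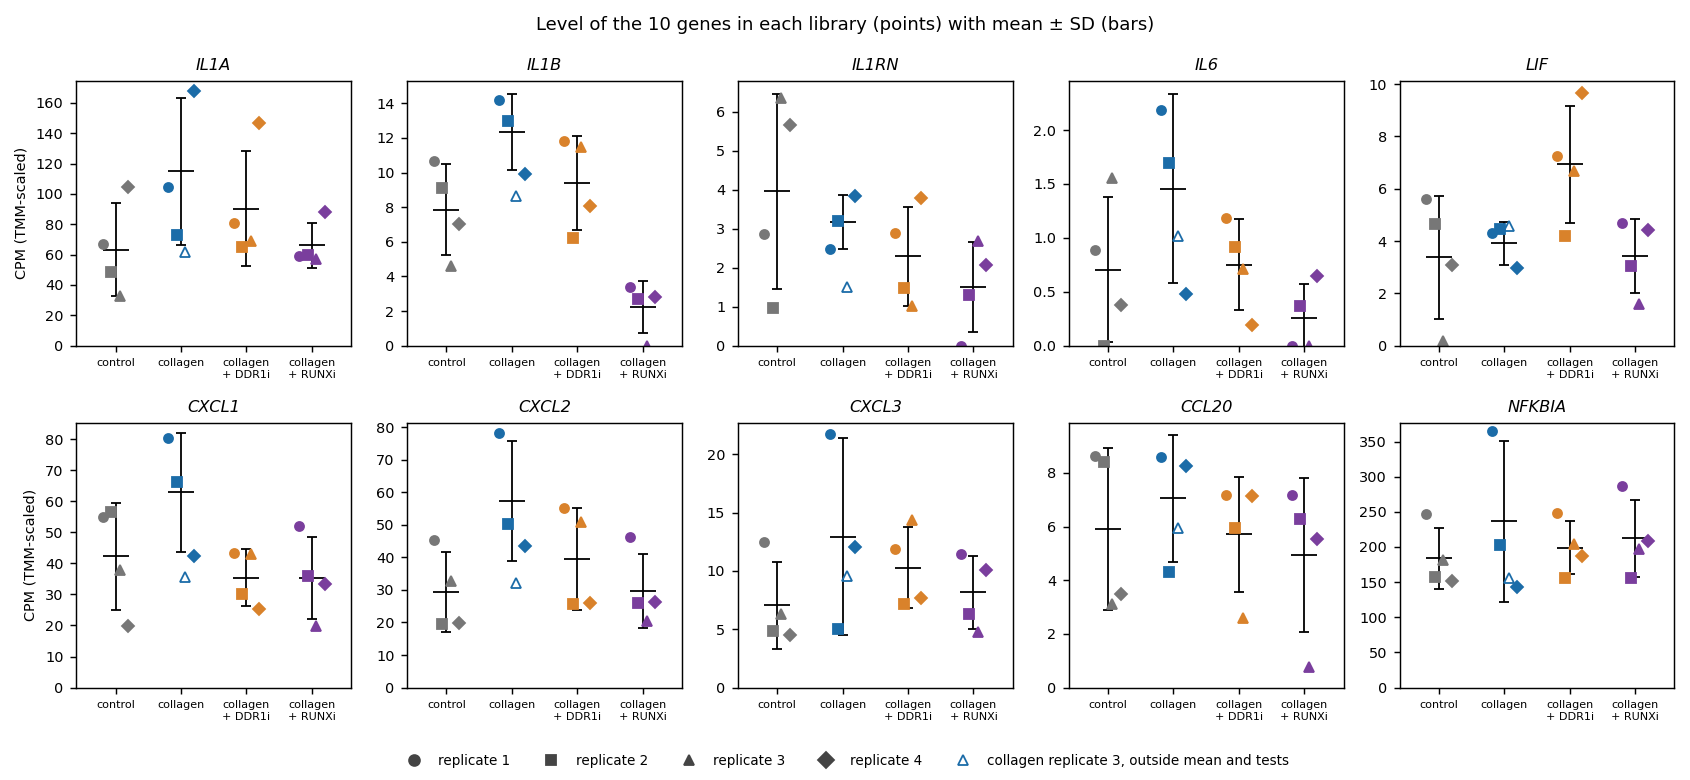
Level of each of the 10 genes in CPM (linear axis from 0) in the 16 libraries, 1 panel per gene, with groups along the horizontal axis, marker shape for the replicate number and bars for the mean ± SD; the open triangle is collagen replicate 3, which is outside the mean and the tests. The 4 RUNXi libraries of *IL1B* lie at or below 3.36 CPM, under all 12 other libraries, and circles (replicate 1) top every group of *CXCL2*, *CCL20* and *NFKBIA*.

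Total counts were between 12184619 and 44332378 per library. Collagen replicate 3, which the authors set aside as an outlier, was left out of the tests and is given separately. The libraries differed in the number of rarely counted genes. Genes with 1 to 9 counts numbered between 175 and 573 in control replicates 2 and 3, collagen replicates 1 and 2, DDR1i replicate 3 and RUNXi replicates 1 and 3, against 1556 to 3272 in the other 9 libraries. Genes listed at 0 despite at least 50 counts in each other library of their group numbered 111 in control replicate 2, 48 in control replicate 3, 13 in RUNXi replicate 1, 12 in RUNXi replicate 3 and 7 or fewer elsewhere. The zero values reported below for *IL1B*, *IL1RN* and *IL6* all fall in these libraries, and the part of this pattern in them was not tested.

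*IL1B*, which encodes the secreted agonist IL-1β, showed the clearest separation between groups. It stood at 10.7, 9.11, 4.61 and 7.05 CPM in control replicates 1 to 4. In collagen replicates 1, 2 and 4 it stood at 14.2, 12.9 and 9.90 CPM. With DDR1i the 4 libraries held 11.8, 6.22, 11.5 and 8.07 CPM, inside the range spanned by control and collagen. With RUNXi they held 3.36, 2.68, 0.0 and 2.82 CPM, from 82, 58, 0 and 74 counts. All 4 RUNXi libraries were therefore below all 12 other libraries, which held for 1 of the 10 genes and for 0.311% of all genes. Group means were 7.86 ± 2.63 CPM in controls (SD, n = 4), 12.3 ± 2.21 with collagen (n = 3), 9.40 ± 2.71 with DDR1i (n = 4) and 2.22 ± 1.51 with RUNXi (n = 4). Against collagen, *IL1B* had a log2 fold change of -2.45 (SE 0.65) with RUNXi, and the adjusted p of 0.0522 (edgeR) just missed the threshold of 0.05. Against the control the log2 fold change was -1.81 (SE 0.60, adjusted p = 0.413), and DDR1i against RUNXi gave 2.05 (SE 0.61, adjusted p = 0.333). RUNXi replicate 3 had 0 counts, which allows up to 0.191 CPM as far as counting error goes. *IL1B* is 1 of the 12 genes listed at 0 there despite at least 50 counts in each other RUNXi library, so this 0 may not reflect its level. Without RUNXi replicate 3 the difference from collagen was smaller, at -2.06, and passed the test (adjusted p = 0.00127), as did DDR1i against RUNXi (1.67, adjusted p = 0.00586). With all of these libraries kept, the difference from collagen also passed with DESeq2 (adjusted p = 0.0456). It passed in edgeR with all 4 groups in one fit (adjusted p = 0.0328) and with a replicate block, the replicate number added to the fit (0.0459). With no filter on low counts the adjusted p was 2.01e-09, but that fit called 1046 of 17911 genes, against 549 of 13548 in the main fit. The adjusted p against collagen rose to 0.119 with collagen replicate 3 included and to 0.1255 with a trend in transcript length removed. Among the fits that left out a single library, only that without RUNXi replicate 3 passed. The others gave an adjusted p from 0.0571 (without DDR1i replicate 4) to 0.165 (without collagen replicate 4). With collagen against control *IL1B* had a log2 fold change of 0.65 (SE 0.34, adjusted p = 0.421), and with DDR1i against collagen -0.40 (SE 0.62, adjusted p = 0.822). In bulk libraries fewer cells that make a transcript and less of it per cell cannot be told apart.

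*IL1A*, the other agonist, is made as a precursor that stays within the cell and is released on damage. It stood at 67.2, 48.8, 32.7 and 104.5 CPM in controls and at 104.5, 72.6 and 167.7 CPM in collagen replicates 1, 2 and 4. DDR1i libraries held 81.2, 64.9, 68.8 and 146.6 CPM, and RUNXi libraries held 58.8, 59.8, 57.4 and 88.3 CPM. Replicate 4 was the highest library in all 4 groups, and the groups overlapped. The log2 fold change was 0.86 (SE 0.40, adjusted p = 0.407) for collagen against control and -0.80 (SE 0.34, adjusted p = 0.216) for RUNXi against collagen. For DDR1i against collagen it was -0.35 (SE 0.34, adjusted p = 0.68).

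*IL1RN*, the receptor antagonist, was low in every group, from 0.959 to 6.35 CPM in controls, 2.47 to 3.85 in the 3 collagen libraries, 1.02 to 3.78 with DDR1i and 0.0 to 2.67 with RUNXi. It was the only one of the 10 genes with a negative log2 fold change for collagen against control (-0.31, SE 0.65, adjusted p = 0.905). Its value for RUNXi against collagen was -1.09 (SE 0.82, adjusted p = 0.487), and RUNXi replicate 1 was the library listed at 0.

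*CXCL1*, a ligand of CXCR2, stood at 54.8, 56.5, 37.7 and 19.9 CPM in controls and at 80.3, 66.3 and 42.4 CPM with collagen. It fell in a narrower band with inhibitors, at 43.4, 30.1, 42.9 and 25.4 CPM with DDR1i and at 52.0, 36.1, 19.9 and 33.5 CPM with RUNXi. The groups overlapped, because collagen replicate 4 lay within the range of both inhibitor groups. The log2 fold change against collagen was alike in size for both inhibitors, -0.83 with DDR1i (SE 0.29, adjusted p = 0.14) and -0.83 with RUNXi (SE 0.29, adjusted p = 0.113). These comparisons share their collagen libraries. Set against each other directly, the inhibitors differed by a log2 of 0.00, with an SE of 0.27 that leaves room for a difference in either direction (adjusted p = 0.999). Without RUNXi replicate 1 the difference between RUNXi and collagen was -1.08 and passed the test (adjusted p = 0.0364), and without collagen replicate 1 it was -0.64 (adjusted p = 0.245).

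*CXCL2*, a second CXCR2 ligand, had the smallest p for collagen against control. Controls held 45.4, 19.7, 32.7 and 19.9 CPM and collagen replicates 1, 2 and 4 held 78.3, 50.3 and 43.5 CPM. Collagen replicate 4 lay just below control replicate 1, so that the groups overlapped. The log2 fold change was 0.97 (SE 0.28, adjusted p = 0.159), while DESeq2 gave an adjusted p of 0.0356. DDR1i libraries held 55.2, 25.8, 50.8 and 26.1 CPM, a spread that runs through both the control and the collagen range (against collagen -0.54, SE 0.34, adjusted p = 0.452). RUNXi libraries held 46.1, 25.9, 20.5 and 26.2 CPM, close to the control range (against collagen -0.95, SE 0.34, adjusted p = 0.129; against control 0.01, SE 0.33, adjusted p = 0.998). Without RUNXi replicate 1 the difference from collagen was -1.24 and passed the test (adjusted p = 0.038), and without collagen replicate 1 it was -0.68 (adjusted p = 0.284).

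*CXCL3* and *CCL20* were lower and more scattered. *CXCL3*, the third CXCR2 ligand of the cluster, ranged from 4.54 to 12.5 CPM in controls, 4.98 to 21.8 with collagen, 7.14 to 14.4 with DDR1i and 4.78 to 11.5 with RUNXi. *CCL20* ranged from 3.11 to 8.64 CPM in controls, 4.30 to 8.58 with collagen, 2.58 to 7.16 with DDR1i and 0.764 to 7.18 with RUNXi. No comparison of either gene passed the test, the smallest adjusted p being 0.364 for *CXCL3* with RUNXi against collagen (-0.66, SE 0.40). That value hinged on single libraries, at -1.06 without collagen replicate 2 (adjusted p = 0.0761) and -0.09 without collagen replicate 1 (adjusted p = 0.936). Transcripts of *CXCL1*, *CXCL2* and *CXCL3* share sequence: 5.33%, 10.1% and 5.26% of their 50-base windows were identical in another of the 3, and 0 of their windows of 100 or 150 bases. How the authors assigned reads that fit more than one of them is not given in the sources used here.

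*IL6* was at the edge of detection. It had 0 counts in control replicate 2 and in RUNXi replicates 1 and 3, which allows up to 0.24, 0.123 and 0.191 CPM, and never exceeded 2.19 CPM in any library. Its log2 fold change for RUNXi against collagen was -2.46 with an SE of 1.33 (adjusted p = 0.293). At this depth no difference in *IL6* could be shown.

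*LIF*, an IL-6 family cytokine, was the one gene whose value for DDR1i against collagen was positive. DDR1i libraries held 7.25, 4.20, 6.67 and 9.65 CPM, collagen replicates 1, 2 and 4 held 4.32, 4.45 and 2.97 CPM, and RUNXi libraries held 4.68, 3.05, 1.59 and 4.43 CPM. Control libraries held 5.59, 4.63, 0.187 and 3.09 CPM. DDR1i replicate 2 overlapped with the other groups. The log2 fold change was 0.82 for DDR1i against collagen (SE 0.42, adjusted p = 0.305) and 1.01 for DDR1i against RUNXi (SE 0.38, adjusted p = 0.565).

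*NFKBIA*, the feedback inhibitor, had the smallest share of its variance between treatment groups, 4.09%. It stood at 246.4, 157.7, 181.7 and 151.1 CPM in controls, 364.4, 202.9 and 143.2 with collagen, 248.2, 156.2, 204.7 and 187.8 with DDR1i and 286.4, 156.2, 197.2 and 208.8 with RUNXi. Replicate 1 was the highest library of every group. Its log2 fold change was 0.37 (SE 0.28, adjusted p = 0.644) for collagen against control, -0.25 (SE 0.31, adjusted p = 0.757) for DDR1i and -0.16 (SE 0.31, adjusted p = 0.83) for RUNXi against collagen.

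**Figure D2:**
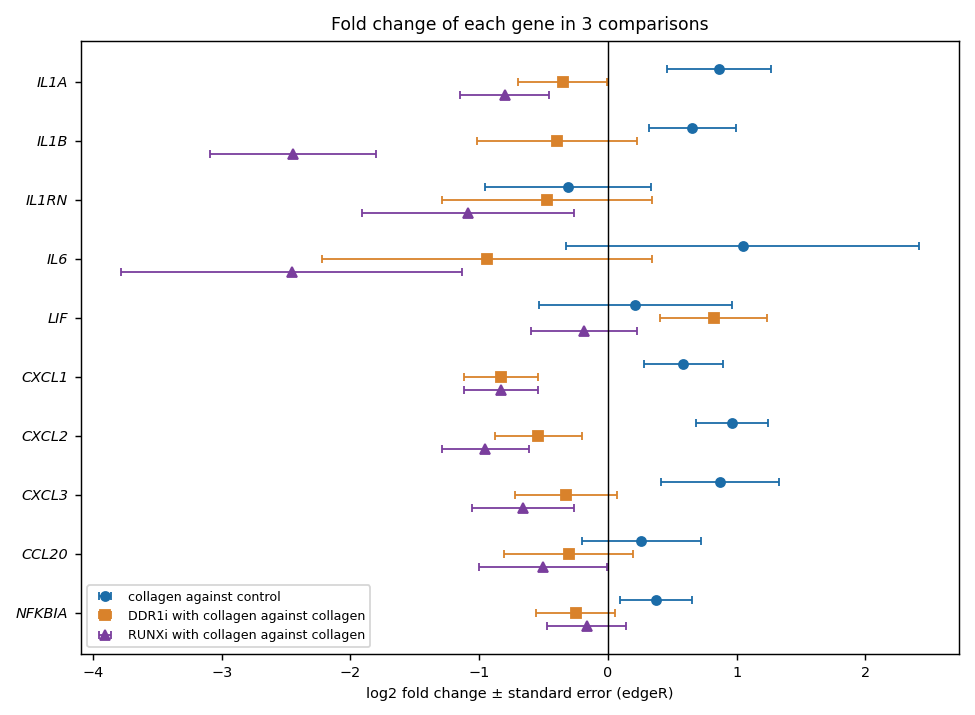
Log2 fold change of each gene (horizontal axis, points with the edgeR standard error as bars) for collagen against control, DDR1i with collagen against collagen, and RUNXi with collagen against collagen. Values for RUNXi are below 0 for all 10 genes, and *IL1B* stands at -2.45 with a standard error of 0.65; *IL6* has the widest bars, and *LIF* is the one gene above 0 with DDR1i.

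Over the 10 genes together, the main edgeR fits, which hold no replicate block, called 0 in each of the 6 comparisons at an adjusted p under 0.05. For collagen against control edgeR also called 0.0% of all genes. At an unadjusted p under 0.05, 1 of the 10 was higher (*CXCL2*, beside 13.4% of all genes in either direction). DESeq2 called the same gene among the 4 members for which it gave an adjusted p (5.81% of the 7130 genes with one). The median log2 fold change of the 10 genes was 0.62, against 0.01 over all genes. Collagen replicates 1, 2 and 4 were above all 4 controls for 0 of the 10 genes, and for 6.32% of all genes.

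For DDR1i against collagen, edgeR called 0 of the 10 genes and 2.47% of all genes. At an unadjusted p 1 gene was lower (*CXCL1*, beside 18.0% of all genes in either direction). DESeq2 called it among 4 members with an adjusted p (10.2% of the 8433 genes with one). The median was -0.37, with 9 of 10 genes below 0, against a median of 0.00 and 49.7% below 0 over all genes. All DDR1i libraries lay below the 3 collagen libraries for 0 of the 10 genes (6.72% of all genes). With a replicate block in the fit, edgeR called 1 of the 10, *CXCL1*, and 537 of all 13548 genes.

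For RUNXi against collagen, edgeR called 0 of the 10 genes and 4.05% of all genes. At an unadjusted p 4 of the 10 were lower, *IL1A*, *IL1B*, *CXCL1* and *CXCL2* (21.1% of all genes in either direction). DESeq2 called 2 of the 8 with an adjusted p, *IL1B* and *CXCL1* (11.1% of the 10463 genes with one). The median was -0.82 with all 10 genes below 0, against 0.01 and 49.5% over all genes. The RUNXi libraries lay below the 3 collagen libraries for 1 gene, *IL1B* (8.81% of all genes). With a replicate block in the fit, edgeR called 4 of the 10, *IL1A*, *IL1B*, *CXCL1* and *CXCL2*, and 759 of all 13548 genes. The members are not independent of each other, so these counts are given with no test.

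Between the inhibitors, edgeR called 0 of the 10 genes (0.568% of all genes), with 2 higher with DDR1i at an unadjusted p, *IL1B* and *LIF* (6.19% of all genes). DESeq2 called 0 (0.905% of the 14809 genes with an adjusted p). For DDR1i against control the counts were 0 by edgeR (0.212% of all genes) and 0 at an unadjusted p (5.13%). DESeq2 called 0 (0.485% of the 13611 genes with an adjusted p), and the median of the 10 genes was 0.19. For RUNXi against control they were 0 by edgeR (0.401% of all genes) and 1 lower at an unadjusted p, *IL1B* (6.81%). DESeq2 called 0 (1.04% of the 10821 genes with an adjusted p), and the median was -0.12. The median of the 10 genes was nearer to 0 against the control than against collagen for both inhibitors, and the comparisons against collagen share the 3 collagen libraries. Those libraries also gave the median of 0.62 against the control, so this order of medians is not a separate result. Over all genes, too, edgeR called fewer against the control than against collagen (2.47% with DDR1i and 4.05% with RUNXi).

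Collagen replicate 3 received collagen without an inhibitor. It held 61.6 CPM of *IL1A*, 8.64 of *IL1B*, 1.49 of *IL1RN*, 35.7 of *CXCL1* and 32.0 of *CXCL2*, below the other 3 collagen libraries for these 5 genes, and 4.56 CPM of *LIF*, above them. For 9 of the 10 genes its level was inside the span of the 8 inhibitor libraries. *NFKBIA*, at 155.6 CPM, was just below the lowest inhibitor value of 156.2 CPM. Such overlap was not particular to this library. Collagen replicates 2 and 4 were also inside that span for several genes, such as *CXCL2* at 50.3 and 43.5 CPM, and outside it for others. No share over all genes is given for this overlap, so it does not show that collagen replicate 3 resembled the inhibitor libraries. Nor is one given for the genes below or above the other 3 collagen libraries, so these are not shown to be unusual. With collagen replicate 3 included, the log2 fold change of *CXCL1* was -0.67 with DDR1i (adjusted p = 0.54) and -0.68 with RUNXi (adjusted p = 0.367). That of *CXCL2* was 0.80 for collagen against control (adjusted p = 0.803).

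Much of the spread of these genes went with the replicate number of the labels and not with treatment. The same number was highest in all 4 groups for 5 of the 10 genes, replicate 4 for *IL1A* and replicate 1 for *IL1B*, *CXCL2*, *CCL20* and *NFKBIA*, against 5.35% of all 13518 genes. Of the variance of log2 CPM over the 16 libraries, a median of 46.0% lay between replicate numbers for the 10 genes, against 22.9% for all genes, and a median of 25.1% lay between treatment groups, against 21.6%. *NFKBIA* was the extreme, with 71.5% between replicate numbers and 4.09% between groups. *IL1A* had 65.2% between replicate numbers. The shares by number and by group were 51.9% and 10.8% for *CCL20*, 49.5% and 19.3% for *CXCL3*, 46.4% and 31.9% for *CXCL2*, and 45.5% and 22.9% for *CXCL1*. *IL1B* was the reverse, with 15.9% between numbers and 54.3% between groups. These shares of *IL1B* include RUNXi replicate 3, whose 0 counts may not reflect its level. The labels do not say what a replicate number stands for, and these shares are descriptions of the 16 libraries.

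**Figure D3:**
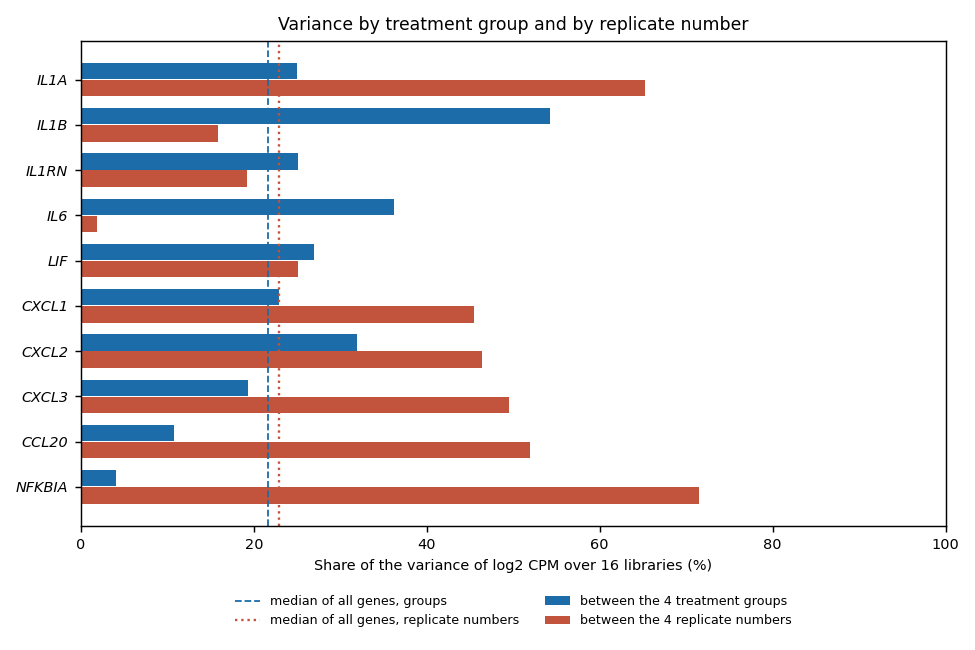
Share of the variance of log2 CPM (percent, horizontal axis) that lies between the 4 treatment groups and between the 4 replicate numbers for each gene over 16 libraries, with vertical lines at the medians of all genes (21.6% and 22.9%). The replicate number takes the larger share for *IL1A*, the 3 CXCL genes, *CCL20* and *NFKBIA*, and the group takes it for *IL1B*, *IL1RN*, *IL6* and *LIF*. Shares of *IL1B*, *IL1RN* and *IL6* include libraries listed at 0 counts.

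The wider pathway was described with 127 genes in lists of IL-1 family ligands and receptors, NF-κB components and targets, other chemokines, chemokine receptors, IL-6 family signalling and regulators of mRNA decay. With collagen against control 0 of the 90 tested genes passed the edgeR test, and 8 had an unadjusted p under 0.05 (13.4% of all genes). With DDR1i against collagen 2 of 94 rose and 0 fell, and with RUNXi 4 rose and 0 fell. Over all genes 2.47% and 4.05% were called, so that the calls in these lists were near the background in these 2 comparisons. None of the 5 tested other chemokines, 18 tested IL-1 receptor and signalling genes, 23 NF-κB components or 3 chemokine receptors passed in either inhibitor comparison. The most abundant of the other chemokines was *CXCL8*, a neutrophil attractant, between 8.53 and 54.8 CPM. *IL18* was the one further IL-1 family ligand tested, between 81.8 and 256.1 CPM. *IRAK1*, a kinase of the IL-1 receptor complex, lay between 276.7 and 431.0 CPM, and *RELA*, the NF-κB subunit p65, between 94.3 and 166.2 CPM.

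*IL6R*, the ligand-binding chain of the IL-6 receptor, rose with both inhibitors. It stood at 16.3, 12.1 and 10.0 CPM in collagen replicates 1, 2 and 4, at 22.7, 23.2, 28.7 and 22.7 CPM with DDR1i and at 28.8, 24.1, 25.5 and 22.2 CPM with RUNXi. Every inhibitor library was above every collagen library, and controls, at 19.2, 12.9, 24.96 and 20.7 CPM, overlapped with both. The log2 fold change was 0.93 (SE 0.20, adjusted p = 0.0149) with DDR1i and 0.97 (SE 0.20, adjusted p = 0.0111) with RUNXi. With collagen replicate 3, at 16.3 CPM, the call held for RUNXi (adjusted p = 0.0315) and was lost for DDR1i (adjusted p = 0.127), as it was for DDR1i with the length trend removed (adjusted p = 0.0646). *JAK1*, a kinase that the gp130 receptors use, rose with DDR1i against collagen by a log2 of 0.57 (SE 0.15, adjusted p = 0.0469). That call was kept in 2 of the 11 fits that left out a library and lost with collagen replicate 3 (adjusted p = 0.454). *JAK1* held 70.9, 67.0 and 44.96 CPM in collagen replicates 1, 2 and 4 and 80.5 to 101.9 CPM with DDR1i. Controls, at 86.6, 71.2, 87.65 and 88.6 CPM, overlapped with DDR1i.

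Of the 7 listed regulators of mRNA decay, 3 rose with RUNXi against collagen, beside 4.05% of all genes called in either direction. *ZFP36L1*, which binds AU-rich elements, was at 204.8 ± 47.9 CPM with collagen (n = 3) and 342.0 ± 17.0 with RUNXi (SD, n = 4), a log2 fold change of 0.73 (SE 0.15, adjusted p = 0.0113). Its relative *ZFP36L2* went from 190.7 ± 16.1 to 276.5 ± 36.7 CPM (0.53, SE 0.14, adjusted p = 0.0307). *ZC3H12A*, which encodes the endonuclease Regnase-1 that cleaves *IL6* mRNA, went from 43.6 ± 14.3 to 69.0 ± 8.73 CPM (0.65, SE 0.18, adjusted p = 0.0408). Collagen replicate 3 held 338.1 CPM of *ZFP36L1*, inside the RUNXi range, and with it all 3 calls were lost (adjusted p = 0.263, 0.189 and 0.141). The calls held in 11, 6 and 5 of the 11 fits that left out a library, in the same order, and that of *ZFP36L1* alone held with the length trend removed (adjusted p = 0.0245). Against the control, *ZFP36L1* (0.64, SE 0.11, adjusted p = 0.00746) and *ZFP36L2* (0.61, SE 0.13, adjusted p = 0.0336) also rose with RUNXi. With the length trend removed neither passed (adjusted p = 0.0763 and 0.16). They were the 2 calls among the 93 list genes tested, beside 0.401% of all genes called. DDR1i against control gave 3 higher genes of the 93 tested in the lists, beside 0.212% of all genes called. They included *IER3*, an early NF-κB target (1.05, SE 0.19, adjusted p = 0.0288), and *ZFP36*, which encodes tristetraprolin (0.84, SE 0.17, adjusted p = 0.0399). *PLAUR*, the urokinase receptor, was the other (0.74, SE 0.14, adjusted p = 0.0163). These calls held in 6, 3 and 8 of 12 fits that left out a library, and that of *IER3* alone held with the length trend removed (adjusted p = 0.0377). Whether these genes acted on the cytokine transcripts was not tested.

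**Figure D4:**
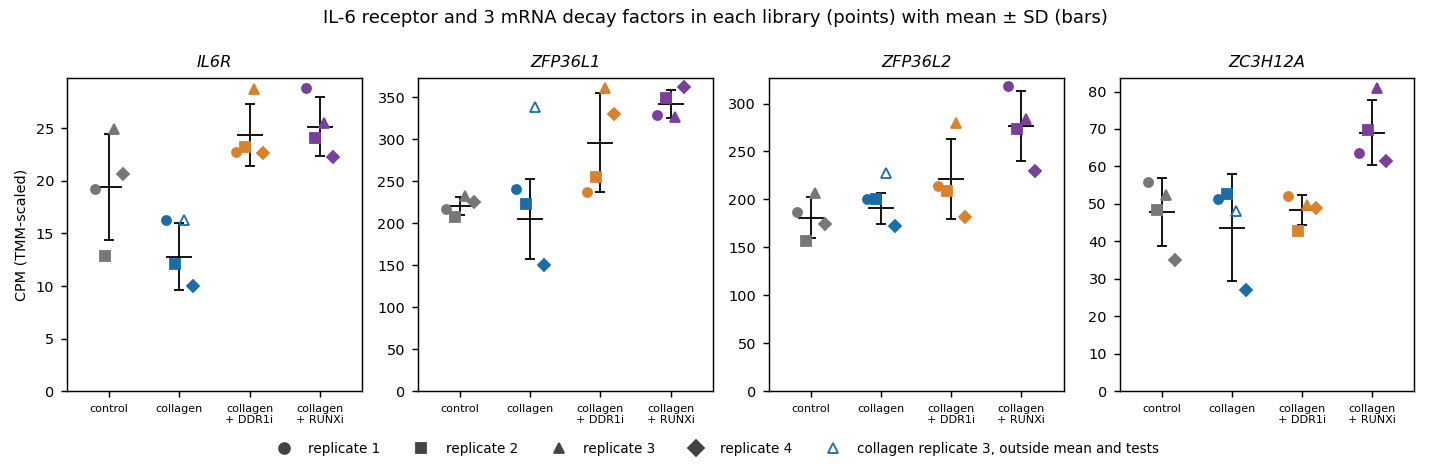
Level in CPM (linear axis from 0) of *IL6R*, *ZFP36L1*, *ZFP36L2* and *ZC3H12A* in the 16 libraries, with groups along the horizontal axis, marker shape for the replicate number and bars for the mean ± SD without collagen replicate 3 (open triangle). The RUNXi libraries lie above collagen replicates 1, 2 and 4 in all 4 panels, while the open triangle of *ZFP36L1*, at 338.1 CPM, lies among the RUNXi libraries.

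The transcripts of the inhibitor targets did not pass the test in any comparison. *DDR1* lay between 108.4 and 163.1 CPM, *RUNX1* between 36.8 and 69.4 and *CBFB* between 54.5 and 74.7 CPM. Transcript levels do not check the action of a small molecule. Epithelial markers were abundant in every library, with a sum over 12 genes from 15210 to 26930 CPM, led by the basal keratin *KRT5*. Of the 10 leukocyte markers *LYZ* was at 0 in all 16 libraries and *PTPRC* had 1 count in all. The sum of the 8 that exclude *S100A8* and *S100A9*, which epithelium also makes, was 27.9 to 53.2 CPM in controls, 26.0 to 39.2 with collagen, 22.6 to 41.1 with DDR1i and 12.1 to 34.4 with RUNXi. *CD14*, a monocyte marker that epithelial cells can also carry, had means of 11.3, 10.96, 8.12 and 4.01 CPM in the same order. In that order *CD68* of the same list had means of 20.27, 17.57, 21.86 and 16.25 CPM. *CSF1R* had 4.175, 2.497, 2.312 and 2.779 CPM, and neither fell throughout as *CD14* did. These marker values cover all 4 libraries of each group, and the part of *CD14* in the values of *IL1B* was not tested. Fibroblast and endothelial markers summed to at most 32.9 CPM, with *COL3A1* and *CDH5* at 0 throughout. Among the lineage markers *KRT14*, a basal keratin, fell with DDR1i against collagen (-0.90, SE 0.13, adjusted p = 0.00123) and against the control (-0.79, SE 0.10, adjusted p = 0.000616). The integrins *ITGA6* and *ITGB4* rose and *S100A9* fell with both inhibitors against collagen, *S100A8* fell with DDR1i and *KRT18* with RUNXi. Of these marker calls against collagen, that of *KRT14* alone held with collagen replicate 3 (adjusted p = 0.00768).

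The genes whose log2 CPM followed the mean of the 10 genes most closely over the 16 libraries were *B3GNTL1* (Pearson r = 0.849), *TRIB1* (0.845), *ZNF271P* (0.83), *RFC4* (0.804), *CA9* (0.802), *HOXA4* (0.799), *PHLDA1* (0.796) and *SH3PXD2A-AS1* (0.793), at 0.642 to 0.804 without RUNXi replicate 3. For *IL1B* they were *TRMT10B* (0.953), *FYB* (0.919), *NUP93* (0.916), *TSPAN1* (0.904) and *C10orf54* (0.9), and leaving out RUNXi replicate 3, where *IL1B* was at 0, brought these to between 0.602 and 0.79. For *CXCL1* they included *PXK* (0.841), *TFEB* (0.816), *HOTAIRM1* (0.81) and *ATF4* (0.804), at 0.795 to 0.891 without that library. Some of these genes were near the floor. *CA9* had a median of 0.224 CPM, and *CA9*, *TRMT10B* and *FYB* were at 0.0 CPM in their lowest library. The points share their libraries and group effects, and the correlations are descriptions.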

How the data were processed

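RNA-seq was analysed in 16 libraries of MCF10A cells, grouped and numbered from the deposited labels. The authors prepared TruSeq libraries, sequenced 150-base paired reads, aligned them with STAR to hg19 and deposited raw counts, the reads counted on each gene. The counting tool, annotation and strand setting are not given in the sources used here, so counts of overlapping genes and close paralogs are uncertain.

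Counts were tested with edgeR 4.0.16 under R 4.3.3 (TMM scaling, filterByExpr, robust quasi-likelihood F test, Benjamini-Hochberg over all genes tested, threshold 0.05). Collagen against control used 7 libraries, inhibitors against collagen 11 and inhibitors against control 12, all without collagen replicate 3. The biological coefficient of variation was 0.353, 0.287 and 0.31. All 10 genes passed the expression filter in each fit. A standard error is the absolute log2 fold change divided by the root of F. A count of 0 allows up to 3 counts, and such limits cover counting error only. No pair of replicates agreed within sampling noise (chi-square per degree of freedom at least 18.7). The test was checked on simulated counts.

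Alternatives were DESeq2 1.42.0, its size factors, other count filters, all groups in one fit, collagen replicate 3 included, the replicate block, a length trend removed (spline with 4 degrees of freedom), each library left out and, chosen after seeing the data, control replicates 2 and 3 or RUNXi replicates 1 and 3 left out. Log2 CPM for variance and likeness used a prior count of 2. GENCODE on GRCh37 gave positions and lengths, with 20676 of 26473 names matched. Figures used Python 3.11.15 and matplotlib 3.10.9.

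The members, lists and tests were chosen with earlier results of these data known. Named genes are all members, the list genes that passed (at most 4 per list and direction, by adjusted p), otherwise up to 2 abundant genes of a list, the inhibitor targets, and the 8 or 5 genes with the highest correlation, of which 1 is not reported here. *CD14*, *CD68*, *CSF1R*, *PTPRC* and *KRT5* were named after their values were seen.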

Additional observations from a re-analysis of the deposited data

Results flagged for a closer look

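Each of the 10 genes was examined for a library apart from the others in each of the 4 groups, which makes 40 groups of 4 values. A library was singled out where its gap to the nearest other, divided by the range of the group, passed Dixon's critical value. This held in 2 cases, the number that chance gives at 1 in 20. *IL1A* stood at 88.31 CPM in RUNXi replicate 4, above 57.4 to 59.8 CPM in the other 3 RUNXi libraries (ratio 0.92). *LIF* stood at 2.965 CPM in collagen replicate 4, below 4.32 to 4.56 CPM in the other 3 collagen libraries (ratio 0.85).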

How the results depend on the processing

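Of 118 recomputed counts of called members, 102 were 0 and 16 were above 0. For collagen against control, DESeq2 and the fit with no filter on low counts each called 1 (*CXCL2*). For DDR1i against collagen, DESeq2 called 1 (*CXCL1*), no filter 2 (*CXCL1*, *CXCL2*) and leaving out RUNXi replicates 1 and 3 called 1 (*CXCL1*). For RUNXi against collagen, DESeq2 called 2, no filter 4, all 4 groups in one fit 1 (*IL1B*), and leaving out RUNXi replicates 1 and 3 called 1 (*IL1B*), while leaving out 1 library gave 0 to 2 (2 without RUNXi replicate 1, 1 without RUNXi replicate 3). For DDR1i against RUNXi, no filter and leaving out RUNXi replicates 1 and 3 each called 1 (*IL1B*), and leaving out 1 library gave 0 to 1. In the other comparisons leaving out 1 library gave 0. The cause of these differences was not tested.

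Same-numbered inhibitor libraries had correlated deviations of 0.0357, 0.141, 0.0708 and 0.167, not all over 0.1, so the numbers were not treated as pairs, although 7 of 8 inhibitor libraries correlated best with their own number. With a replicate block 1 gene was called for DDR1i against collagen (*CXCL1*), 4 for RUNXi against collagen (*IL1A*, *IL1B*, *CXCL1*, *CXCL2*) and 0 in the other 4 comparisons. Over all genes the block moved the calls from 334 to 537 for DDR1i and from 549 to 759 for RUNXi against collagen, and including collagen replicate 3 moved them to 9 and 60. Of 1161 recomputed fold changes of members, 0 reversed with a call, 57 changed sign without one and 25 were called only in the alternative. A filter of 10 counts in every library left 6 to 8 members. With the longest transcript, *NFKBIA* was at 79.3 CPM per kb.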
